A study of Mus musculus with 6 samples.

Results

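The genes described here are 10 immediate early genes, chosen by name: Egr1, Egr2, Egr3, Fos, Fosb, Jun, Junb, Ier2, Nr4a1 and Atf3. They are 10 of the 17320 genes in the deposited table, and all 10 reached a mean of 1 CPM (counts scaled to a fixed library total), the level from which genes were tested. Immediate early genes are transcribed within minutes of a stimulus without new protein synthesis, because the factors that switch them on, among them SRF with its ternary complex partners and CREB, are already bound or waiting in the cell. Most of the products are transcription factors: EGR proteins bind GC-rich sites through zinc fingers, while FOS and JUN proteins pair through leucine zippers to form AP-1. In mast cells they are known to be induced through KIT and the high-affinity IgE receptor, and AP-1 takes part in cytokine gene transcription.

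The data were RNA sequencing libraries of mouse peritoneal cells (PC) cultured for 9 days with SCF and IL-3, 3 from Mcemp1-/- mice (replicates 4, 5 and 6) and 3 from wild-type mice (replicates 1, 2 and 3). Mcemp1 encodes a mast cell membrane protein, and the Mcemp1-/- allele is a CRISPR/Cas9 frameshift deletion in exon 1 on the C57BL/6 background. All libraries shared the 2 cytokines, no further stimulus is described for them, and no sort of the cultured cells is described. The age of the mice was not given for these cultures, and no source used here says whether each library came from its own mouse, so p-values measure only the spread between these libraries.

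The deposited normalized counts are given here as CPM without further scaling. The values of a library summed to 952073 to 989051 in Mcemp1-/- PC and 932999 to 959380 in wild-type PC. For the filters on mean CPM, each library was rescaled to a fixed total. The depth in reads is unknown. Mcemp1 was at 0.201, 0.0849 and 4.23 CPM in Mcemp1-/- replicates 4, 5 and 6, against 9.80, 7.68 and 16.9 CPM in wild-type replicates 1, 2 and 3. Across genes on the log2 scale, r was 0.983 between the library labelled Mcemp1-/- replicate 6 and each of wild-type replicates 1 and 3. It was 0.922 between replicate 6 and wild-type replicate 2, which had r = 0.931 and 0.927 with wild-type replicates 1 and 3. Between replicate 6 and Mcemp1-/- replicates 4 and 5, r was 0.923 and 0.917, and these 2 had r = 0.994 with each other (genes are not independent replicates). Mast cell markers (14 genes, among them Kit, Cpa3 and Fcer1a) summed to 51368, 52532 and 29179 CPM in Mcemp1-/- replicates 4, 5 and 6, against 27331 to 28659 CPM in wild-type PC. Neutrophil precursor markers (10 genes, among them Mpo, Elane and Ctsg) summed to 477, 352 and 13107 CPM in Mcemp1-/- PC, against 8704 to 14440 CPM in wild-type PC. Ctsg made up most of the sums in replicates 4 and 5, at 436 and 346 CPM, while Elane was at 0.201 and 0.127 CPM there. Ctsg did not follow the sum. It was at 654 CPM in replicate 6, against 557, 437 and 424 CPM in wild-type replicates 1, 2 and 3 (log2 fold change -0.02). Macrophage markers (10 genes) summed to 20.2, 6.06 and 1026 CPM in Mcemp1-/- PC, against 586 to 1133 CPM in wild-type PC. By these 3 lists and by Mcemp1, the library labelled Mcemp1-/- replicate 6 sat nearer to the wild-type libraries. The sum of the eosinophil markers (8 genes) went with the labels instead. It was 10.6, 11.2 and 12.8 CPM in Mcemp1-/- replicates 4, 5 and 6, against 52.2, 88.3 and 140 CPM in wild-type PC. Of the 7 tested, 5 had lower groups without overlap and 2, the granule protein genes Epx and Prg2, fell (adjusted p = 0.017 each in limma), with all 3 Mcemp1-/- libraries at 0.0669 to 0.255 CPM. The eosinophil sum separated the libraries by label as most of the immediate early genes did, and the part of these markers in the results was not tested. The pseudogene Actr3-ps also went with the labels. It was at 30.3, 32.7 and 40.9 CPM in Mcemp1-/- replicates 4, 5 and 6, against 0.327, 0.334 and 0.857 CPM in wild-type replicates 1, 2 and 3 (adjusted p = 0.012 in limma). Whether the label of replicate 6 is right could not be settled, and if it is wrong, a value over 3 Mcemp1-/- libraries does not describe the genotype. The main results are therefore also given for replicates 4 and 5 alone. In bulk RNA, fewer cells of a type and less RNA per cell cannot be told apart.

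Promoter sequences are shown for the members in which the core of the cAMP response element, the site bound by CREB and ATF proteins, was found, since most of these genes stood higher together. RefSeq promoter windows (GRCm38.p6, 250 bases before to 50 after a start) were matched for 7 of the 10 genes by symbol, namely Fos, Nr4a1, Junb, Fosb, Egr2, Jun and Atf3. Each run is the 150 bases before a start, 5′ to 3′ on the strand of the gene, with capitals marking TGACG or its reverse complement CGTCA.
Fos, chr12:85473740-85473889, plus strand: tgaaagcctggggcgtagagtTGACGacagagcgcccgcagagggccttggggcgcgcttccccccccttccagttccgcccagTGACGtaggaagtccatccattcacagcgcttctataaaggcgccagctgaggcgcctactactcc
Nr4a1, chr15:101266696-101266845, plus strand: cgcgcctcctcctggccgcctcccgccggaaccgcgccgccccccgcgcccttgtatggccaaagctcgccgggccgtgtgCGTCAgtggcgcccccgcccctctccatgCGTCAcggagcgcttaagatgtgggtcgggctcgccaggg
Junb, chr8:84978749-84978898, minus strand: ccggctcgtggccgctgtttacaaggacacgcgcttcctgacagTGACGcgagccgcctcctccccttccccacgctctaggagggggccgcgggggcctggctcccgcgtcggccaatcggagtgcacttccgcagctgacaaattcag
Fosb, chr7:19310046-19310195, minus strand: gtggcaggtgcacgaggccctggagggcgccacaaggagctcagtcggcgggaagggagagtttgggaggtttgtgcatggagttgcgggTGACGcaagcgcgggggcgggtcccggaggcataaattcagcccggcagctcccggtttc
Egr2, chr10:67537719-67537868, plus strand: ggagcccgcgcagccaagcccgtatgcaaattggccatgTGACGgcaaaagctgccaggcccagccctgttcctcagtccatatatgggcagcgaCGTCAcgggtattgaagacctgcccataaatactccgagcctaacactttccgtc
Atf3, chr1:191183334-191183483, minus strand: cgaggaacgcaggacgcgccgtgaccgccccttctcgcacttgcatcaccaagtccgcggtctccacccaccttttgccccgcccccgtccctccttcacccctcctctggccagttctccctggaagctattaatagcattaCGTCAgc

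The core was on either strand in 6 of the 7 genes (not in Jun), against 23.0% of the 27025 genes with a window. Fos, Nr4a1 and the printed Egr2 window held 2 copies each. The first base of the copies lay 129 and 66 bases before the Fos start, 69 and 40 bases before the Nr4a1 start, 106 bases before the Junb start, 60 bases before the Fosb start and 7 bases before the Atf3 start. The full palindrome TGACGTCA was in 0 of the 7 genes (2.03% of all genes) and the AP-1 motif TGANTCA in 0 of the 7 (8.97%). The EGR motif GCGNGGGCG was in Fosb and Nr4a1 (6.27% of all genes), and the CArG box, the SRF motif, in Egr2 (1.81%). All motifs were searched on both strands, the core also counts inside the full palindrome, and Egr2 had 5 windows, so it had more chances to hold a match. A match is a description of the letters and no evidence of binding. Sites more than 250 bases before a start were not searched, and Egr1, Egr3 and Ier2 had no window. A motif not found here may therefore lie outside the windows. Atf3, which stood lower in the Mcemp1-/- libraries, held the core as did the genes that stood higher. The Egr2, Nr4a1 and Atf3 runs lie inside the annotated genes, before internal starts, and 6 bases of the Fosb run and 7 bases of the Atf3 run fall in annotated exons.

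The comparison of Mcemp1-/- with wild-type PC asks how the loss of Mcemp1 goes with the state of the cultured cells. For 9 of the 10 genes, every Mcemp1-/- library stood above every wild-type library, with mean ratios of 2.82 (Egr2) to 7.85 (Egr1). Atf3 was the exception, with a lower mean in Mcemp1-/- PC and groups that overlapped. Of all 13517 genes tested, 14.8% had groups that did not overlap with Mcemp1-/- PC higher and 14.7% with Mcemp1-/- PC lower. The median log2 fold change was 1.92 over the 10 genes and -0.01 over all genes tested. Egr3 alone passed the limma test at an adjusted p under 0.05 over all genes, where 2 genes (0.0148%) were called higher and 8 lower. At an unadjusted p under 0.05 the counts over all genes were 1566 higher and 1863 lower. The smallest p that an exact permutation of 3 against 3 libraries allows for a single gene is 0.1.

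**Figure D1:**
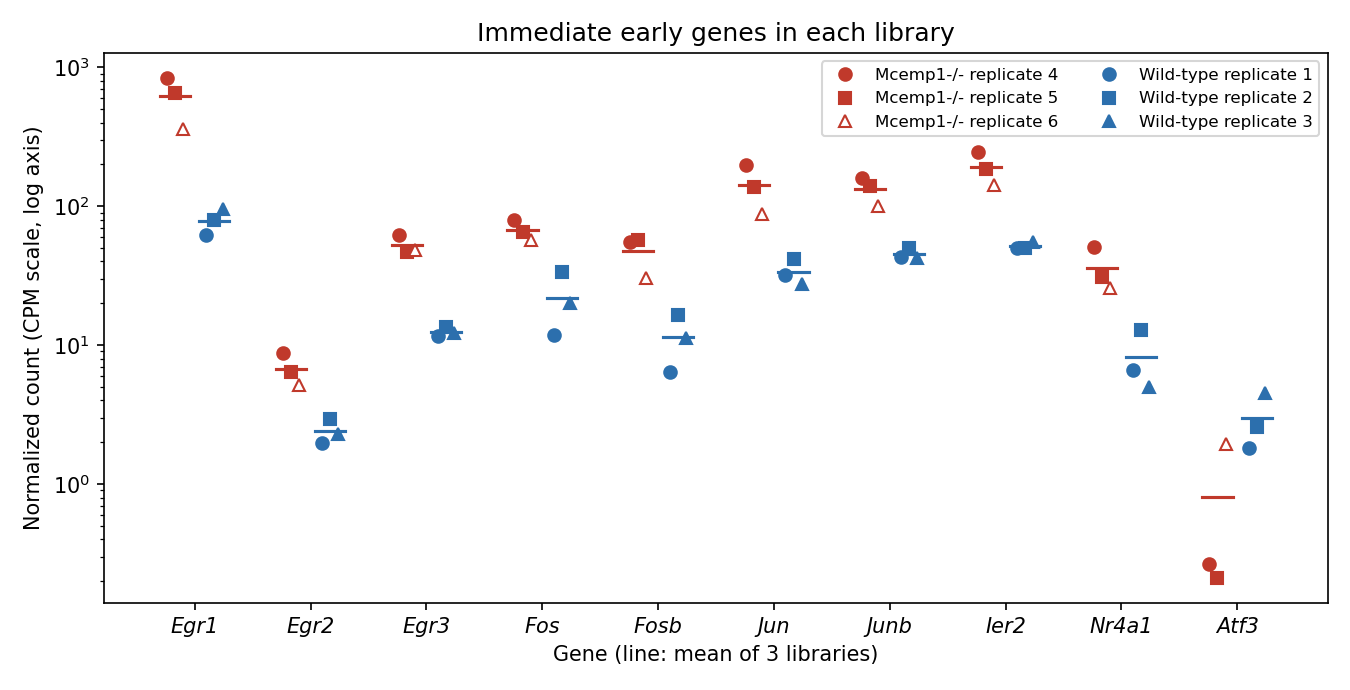
Normalized counts (CPM scale, log axis) of the 10 genes in each library, Mcemp1-/- in red on the left and wild-type in blue on the right of each gene, with a line at the mean of 3 libraries and an open triangle for the library labelled Mcemp1-/- replicate 6. The red points lie above all blue points for 9 genes, and Atf3 is at 0.268, 0.212 and 1.94 CPM in Mcemp1-/- PC, against 1.81 to 4.56 CPM in wild-type PC.

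Among the EGR genes, Egr1, a zinc finger factor induced by most growth factor signals, had the highest values. It was at 837, 657 and 360 CPM in Mcemp1-/- replicates 4, 5 and 6, against 62.1, 79.2 and 94.7 CPM in wild-type replicates 1, 2 and 3. The lowest Mcemp1-/- library, replicate 6, was still well above the highest wild-type library, but the Mcemp1-/- values differed from each other by more than the wild-type values did. Its fold change on the log2 scale was 2.90 (standard error 0.33, 95% interval 2.09 to 3.72), which missed the threshold in limma (adjusted p = 0.085).

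Egr3 (chr14:70077203-70082614, plus strand), a relative of Egr1 that is studied mostly as an activation gene of lymphocytes and neurons, rose. It was at 61.6, 46.7 and 48.6 CPM in Mcemp1-/- replicates 4, 5 and 6, against 11.7, 13.4 and 12.2 CPM in wild-type replicates 1, 2 and 3. Both groups were tight, and replicate 6 lay between replicates 4 and 5. This was a log2 fold change of 2.02 with a 95% interval of 1.70 to 2.33 (standard error 0.13, adjusted p = 0.017 in limma). The call needed every library except replicate 6: without any one of the other 5 libraries the adjusted p was 0.097 to 0.14 while the log2 fold change stayed between 1.90 and 2.10.

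Egr2, also called Krox20 and known for its part in Schwann cell myelination, was the lowest of the EGR genes. It was at 8.77, 6.37 and 5.16 CPM in Mcemp1-/- replicates 4, 5 and 6, against 1.96, 2.95 and 2.28 CPM in wild-type replicates 1, 2 and 3. The groups were apart by less than for Egr1 and Egr3, and the log2 fold change was 1.32 with a standard error of 0.24 (adjusted p = 0.14 in limma). At these low levels the pseudocount of 0.479 pulls the fold change towards 0.

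Among the FOS genes, Fos (c-Fos), the classic AP-1 subunit, was at 79.7, 65.2 and 56.7 CPM in Mcemp1-/- replicates 4, 5 and 6, against 11.8, 33.5 and 20.0 CPM in wild-type replicates 1, 2 and 3. In CPM the wild-type libraries were about as spread as the Mcemp1-/- ones, with wild-type replicate 2 the highest of its group. As log2 differences from the wild-type mean they were more spread, at -0.74 to 0.73, against 1.49 to 1.97 in Mcemp1-/- PC. On the log2 scale the fold change was 1.72 with a standard error of 0.37 (adjusted p = 0.15 in limma).

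Fosb, which can replace Fos in AP-1 and is also spliced to a shorter form that gene-level values do not separate, was at 54.9, 57.5 and 30.4 CPM in Mcemp1-/- replicates 4, 5 and 6, against 6.40, 16.5 and 11.3 CPM in wild-type replicates 1, 2 and 3. Replicate 6 stood below the other Mcemp1-/- libraries but above every wild-type library. In limma the log2 fold change was 2.06, its standard error 0.40 and the adjusted p = 0.14.

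The JUN proteins are the partners of FOS in AP-1. Jun (c-Jun) was at 199, 138 and 88.4 CPM in Mcemp1-/- replicates 4, 5 and 6, against 32.0, 42.0 and 27.3 CPM in wild-type replicates 1, 2 and 3. Limma gave a log2 fold change of 2.0 with a standard error of 0.32 (adjusted p = 0.11). Jun overlaps the antisense gene Junos at its start, and strand use in the counting is not given, but Junos was listed at 0.0537 to 0.484 CPM in all libraries.

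Junb, a JUN protein with weaker transactivation that is known to counter c-Jun on some targets, was at 159, 140 and 101 CPM in Mcemp1-/- replicates 4, 5 and 6, against 42.8, 50.1 and 42.4 CPM in wild-type replicates 1, 2 and 3. The lowest Mcemp1-/- value was about 2 times the highest wild-type value. It had a log2 fold change of 1.53 with a standard error of 0.18 (adjusted p = 0.085 in limma), and with the sex of the library as a term it passed the test (adjusted p = 0.044).

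Ier2, a small nuclear protein induced by growth factors, was at 245, 186 and 141 CPM in Mcemp1-/- replicates 4, 5 and 6, against 50.4, 50.1 and 55.2 CPM in wild-type replicates 1, 2 and 3. Its wild-type libraries lay within a few CPM of each other. This gave a log2 fold change of 1.83 with a standard error of 0.20 (adjusted p = 0.085 in limma).

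Nr4a1 (Nur77), an orphan nuclear receptor that is a readout of antigen receptor signals in lymphocytes, was at 51.2, 30.8 and 25.8 CPM in Mcemp1-/- replicates 4, 5 and 6, against 6.61, 12.8 and 5.01 CPM in wild-type replicates 1, 2 and 3. The groups did not overlap although each was widely spread. Its log2 fold change of 2.12 had a standard error of 0.40 (adjusted p = 0.14 in limma).

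Atf3, a stress-induced factor of the ATF and CREB family that often represses, did not follow the others. It was at 0.268, 0.212 and 1.94 CPM in Mcemp1-/- replicates 4, 5 and 6, against 1.81, 2.58 and 4.56 CPM in wild-type replicates 1, 2 and 3. The library labelled Mcemp1-/- replicate 6 was above wild-type replicate 1, so the groups overlapped, while replicates 4 and 5 lay far below. Atf3 also overlaps the small annotated gene Gm24748, not analysed here. Over all 6 libraries the log2 fold change was -1.61 with a standard error of 0.57 (adjusted p = 0.17 in limma). Replicates 4 and 5 were also the libraries with the least macrophage and neutrophil precursor signal, and the part of these markers in the Atf3 values was not tested.

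Compared per length (CPM per kilobase of annotated exon), Egr1 headed the genes in Mcemp1-/- PC with a level of 138 ± 53.8, followed by Ier2 at 125 ± 34.1 (SD, n = 3), and their ranges overlapped. In wild-type PC, Ier2 came first at 34.1 ± 1.89, then Junb at 19.6 ± 1.88 and Egr1 at 17.5 ± 3.63 (SD, n = 3), of which Junb and Egr1 overlapped. Next in level per length in each group came Jun, Fos, Egr3, Nr4a1 and Fosb, with Junb ahead of them in Mcemp1-/- PC. In Mcemp1-/- PC, these levels were 57.9 for Junb, 44.5 for Jun, 28.6 for Fos, 11.9 for Egr3, 10.2 for Nr4a1 and 7.62 for Fosb, and the ranges of neighbours overlapped except between Fos and Egr3. Egr2 and Atf3 were the lowest in both groups. Egr2 was at 1.99 ± 0.541 in Mcemp1-/- PC, against 0.706 ± 0.149 in wild-type PC, and Atf3 at 0.374 ± 0.455, against 1.38 ± 0.659 (SD, n = 3 each). Egr2 stood above Atf3 in Mcemp1-/- PC with ranges apart, while in wild-type PC Atf3 had the higher mean and the ranges overlapped. Without replicate 6 the order in Mcemp1-/- PC was the same, with means of 167 for Egr1, 141 for Ier2, 12.3 for Egr3 and 0.111 for Atf3, and the ranges of Jun and Fos no longer overlapped.

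Without the library labelled Mcemp1-/- replicate 6, all 10 genes passed the limma test, 9 higher and 1 lower, where 19.4% of the 13506 genes then tested were called higher and 22.4% lower. Egr1 then had a log2 fold change of 3.25 (adjusted p = 0.00012 in limma), Junb of 1.72 (adjusted p = 0.00012) and Ier2 of 2.03 (adjusted p = 0.00013). Egr3 was at 2.07 on this scale (adjusted p = 0.00017), Jun at 2.30 (adjusted p = 0.00060) and Fosb at 2.35 (adjusted p = 0.0033). Egr2 was at 1.48 (adjusted p = 0.0034) and Nr4a1 at 2.32 (adjusted p = 0.0056). Fos had the largest adjusted p among the 9 higher genes (0.013, log2 fold change 1.83). Atf3 fell, with a log2 fold change of -2.19 and an adjusted p of 0.0055, and its groups then did not overlap. These calls rest on 2 Mcemp1-/- libraries that also held the higher mast cell marker sums given above, and the part of that difference in the calls was not tested.

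The library labelled Mcemp1-/- replicate 6 itself kept the higher immediate early gene levels although across genes it correlated more closely with wild-type replicates 1 and 3 than with Mcemp1-/- replicates 4 and 5. Its r with wild-type replicate 2 was 0.922, close to those with replicates 4 and 5. Replicate 6 was above every wild-type library and at least 2-fold above their mean for 8 of the 10 genes, against 84 of all 13517 genes (0.621%). All 3 Mcemp1-/- libraries met the same rule for 8 of the 10 genes, against 28 of all genes (0.207%), so that these genes were 28.6% of the 28. The rule was chosen after the values had been seen. Egr2 missed it narrowly, at 0.99 on the log2 scale in replicate 6, and Atf3 was lower there. Replicates 4 and 5 alone met it for 9 genes, Egr2 included, against 252 of all genes (1.87%). In replicate 6 the log2 difference from the wild-type mean was 2.21 for Egr1, 1.93 for Egr3 and 1.71 for Nr4a1, and 1.16 for Junb, the lowest of the 8. In replicate 4 the same difference was 3.42 for Egr1, 2.26 for Egr3, 2.69 for Nr4a1 and 1.81 for Junb. The median over all genes was -0.01 in each of replicates 4 and 6, and -0.02 in replicate 5.

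**Figure D2:**
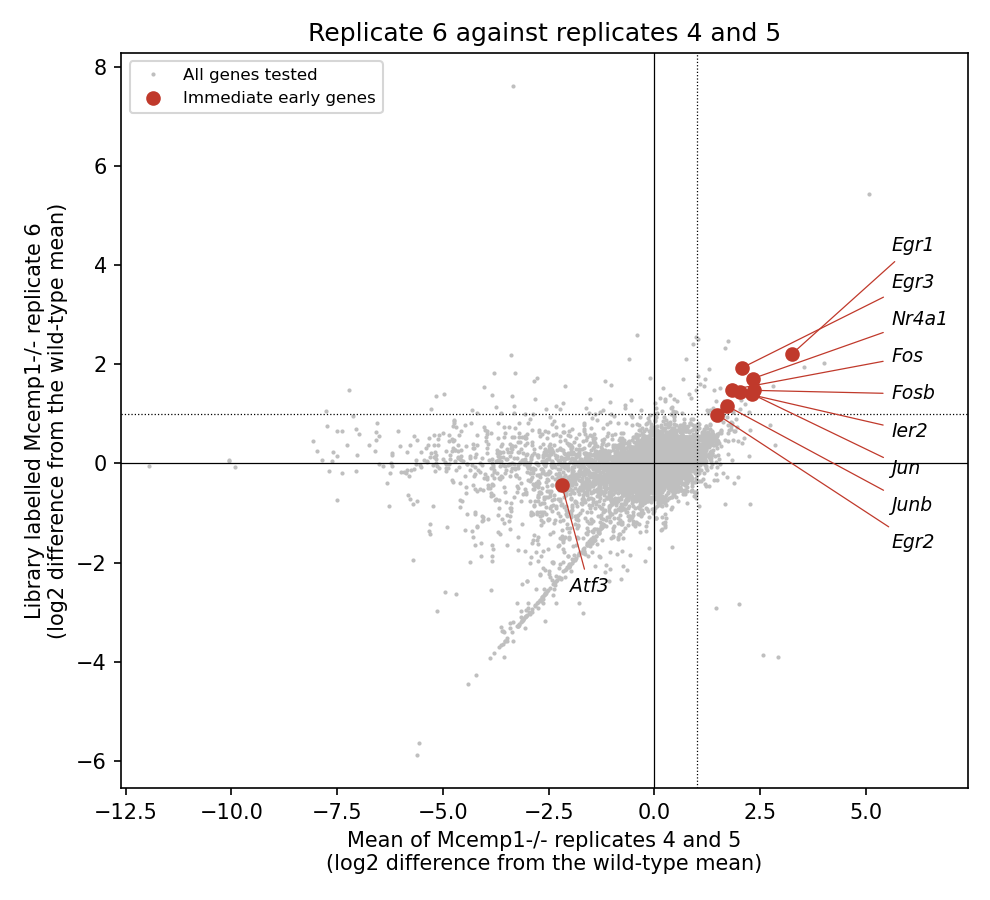
Log2 difference from the wild-type mean in the library labelled Mcemp1-/- replicate 6 (vertical axis) against the mean of Mcemp1-/- replicates 4 and 5 (horizontal axis), with each of the 13517 genes tested as a grey dot, the 10 genes in red and dotted lines at a 2-fold difference. Of the red points, 8 lie above 1 on both axes, Egr2 lies at 0.99 on the vertical axis, and Atf3 lies below 0 on both.

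The other 20 of the 28 genes, some of which are named here after their values were seen, ranged from signalling genes to histone genes and a pseudogene. Rgs1, a brake on G protein signalling, was at 301, 260 and 165 CPM in Mcemp1-/- PC, against 59.2, 75.8 and 67.9 CPM in wild-type PC. Tnf, the cytokine, was at 33.7, 23.2 and 23.4 CPM in Mcemp1-/- PC, against 11.9, 10.3 and 10.7 CPM in wild-type PC. Nfkbiz, a nuclear regulator of NF-kB targets, was at 35.6, 35.8 and 25.6 CPM in Mcemp1-/- PC, against 8.10, 13.6 and 11.1 CPM in wild-type PC. The pseudogene Actr3-ps, the histone genes Hist1h2br, H1f3 and H2bc9, the kinase gene Plk3, Osgin1, the neuropeptide gene Calca and the mucosal mast cell proteases Mcpt1 and Mcpt2 were also among them.

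The sexes were mixed within groups in the same way. Xist, which marks female cells, was at 1481 CPM in Mcemp1-/- replicate 6 and 1297 CPM in wild-type replicate 3 and under 1 CPM in the others. Between the female libraries, replicate 6 over replicate 3, the ratio was 3.80 for Egr1, 3.97 for Egr3, 2.84 for Fos, 3.23 for Jun, 2.38 for Junb, 2.56 for Ier2, 5.15 for Nr4a1 and 0.425 for Atf3. Between the male libraries, the mean of replicates 4 and 5 over that of replicates 1 and 2, it was 10.6 for Egr1, 4.31 for Egr3, 3.20 for Fos, 4.56 for Jun, 3.22 for Junb, 4.28 for Ier2, 4.22 for Nr4a1 and 0.110 for Atf3. Egr2 had ratios of 2.26 and 3.08, and Fosb of 2.69 and 4.90, in the same order of sexes. The direction was thus the same within each sex for all 10 genes, with a single female library per group and no test.

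Since mast cell marker levels were higher in replicates 4 and 5, the genes were also set against the summed level of the 14 mast cell markers, of which 9 had higher and 1 lower groups without overlap. The sum rests largely on Cpa3, whose groups overlapped. Cpa3 gave 26702 of the 51368 CPM in Mcemp1-/- replicate 4 and 14213 of the 27331 CPM in wild-type replicate 1. Per 10000 CPM of the 14 markers, Egr1 was at 163, 125 and 123 in Mcemp1-/- replicates 4, 5 and 6, against 22.7, 28.6 and 33.0 in wild-type replicates 1, 2 and 3. Egr3 was at 12.0, 8.88 and 16.7 in Mcemp1-/- PC, against 4.29, 4.84 and 4.27 in wild-type PC, so that replicate 6 was the highest library on this scale. Fos was at 15.5, 12.4 and 19.4 in Mcemp1-/- PC, against 4.30, 12.1 and 6.98 in wild-type PC, where wild-type replicate 2 nearly reached Mcemp1-/- replicate 5. The groups of the same 9 genes did not overlap on this scale, against 187 of all genes (1.38%), and the ratios of means were 4.88 for Egr1, 2.80 for Egr3, 2.80 for Nr4a1, 2.62 for Fosb and for Jun, 2.36 for Ier2, 2.03 for Fos, 1.90 for Junb and 1.82 for Egr2. The rule of a 2-fold difference in each library was then met by 3 of the 10 genes and by 11 of all genes. Atf3 had a ratio of 0.238. With replicates 4 and 5 alone the ratios were 5.12 for Egr1, 2.34 for Egr3, 2.70 for Nr4a1, 2.65 for Fosb, 2.68 for Jun, 2.23 for Ier2, 1.79 for Fos, 1.78 for Junb and 1.70 for Egr2, and 0.0436 for Atf3.

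**Figure D3:**
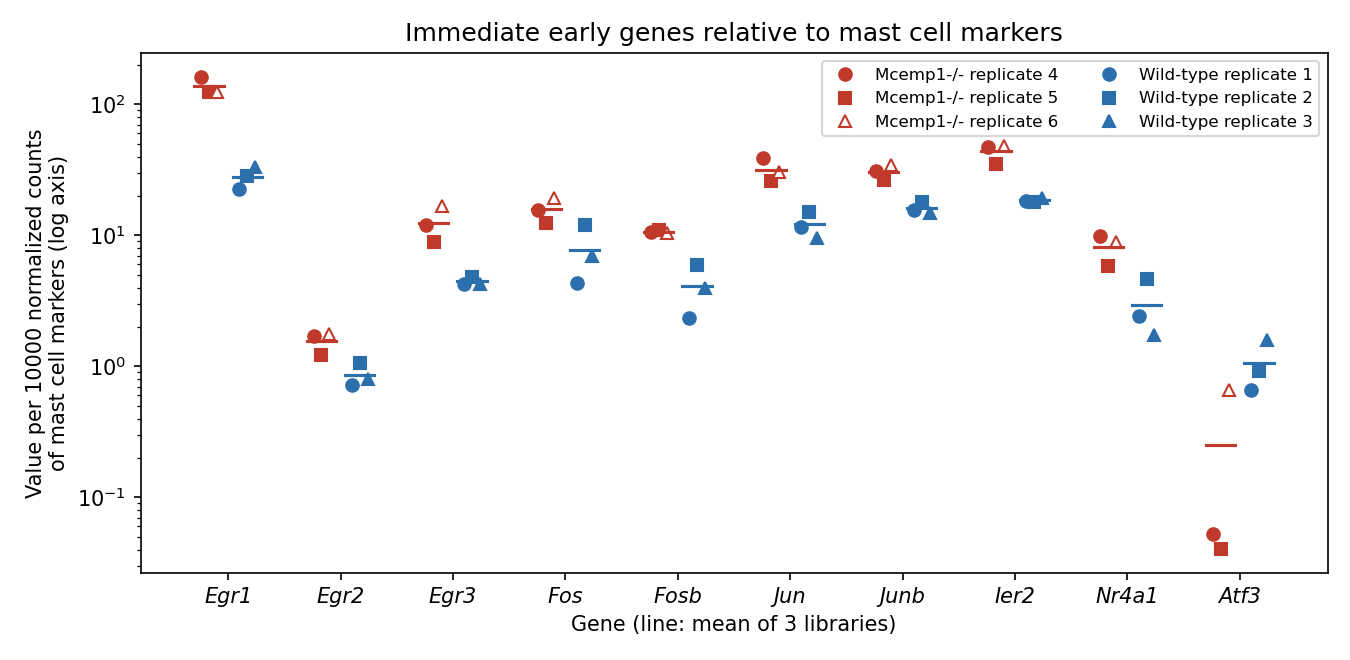
Level of the 10 genes per 10000 CPM of summed mast cell markers (log axis), Mcemp1-/- in red on the left and wild-type in blue on the right of each gene, with a line at the mean of 3 libraries. The library labelled Mcemp1-/- replicate 6 (open triangle) lies above every wild-type library for 9 genes, for example at 123 for Egr1, against 22.7 to 33.0 in wild-type PC.

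Within the wild-type libraries, replicate 2 was the highest for 7 of the 10 genes, among them Fos, Fosb and Nr4a1. It was also the highest library of all for the inducible heat shock gene Hspa1b, a marker of handling stress, at 7.21 CPM, while the other 5 libraries were at 0.678 to 2.14 CPM. Hspa1b itself was at 0.761, 0.678 and 0.798 CPM in Mcemp1-/- PC, below each wild-type library (1.11, 7.21 and 2.14 CPM), and Hspa1a was at 0.0671, 0.133 and 0.492 CPM in Mcemp1-/- PC, against 0.287, 2.12 and 0.322 CPM in wild-type PC. Among the 5 tested heat shock and handling genes, Dnajb1 was at 76.6, 68.7 and 56.4 CPM in Mcemp1-/- PC, against 49.6, 53.0 and 51.2 CPM in wild-type PC, and the median log2 fold change was -0.04. Dnajb1 had higher groups without overlap and Hspa1b lower ones, against 14.8% and 14.7% of all genes. With all libraries 0 of the 5 passed the test (1 had an unadjusted p under 0.05). Without replicate 6 the test called 2 higher and 0 lower, against 19.4% and 22.4% of all genes. The part of handling in the members' values was not tested. Stromal and mesothelial markers summed to 69.9 CPM in wild-type replicate 2 and to 1.21 to 2.05 CPM elsewhere, and their part in its values was not tested.

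Of the 11 tested partners of the AP-1 and ATF family, 0 passed the test and the median log2 fold change was 0.06. Groups did not overlap for 1, higher, against 14.8% of all genes higher and 14.7% lower. Fosl2, a FOS relative, was at 75.0, 80.3 and 59.3 CPM in Mcemp1-/- PC, against 57.7, 55.9 and 48.5 CPM in wild-type PC (log2 fold change 0.39). Jund, the third JUN gene, named after its values were seen, was at 141, 134 and 55.5 CPM in Mcemp1-/- PC, against 68.6, 47.7 and 47.7 CPM in wild-type PC (log2 fold change 0.91, adjusted p = 0.20 in limma), so that replicate 6 lay within the wild-type range. At an unadjusted p under 0.05 the count of partners was 1. Without replicate 6 the test called 3 higher and 1 lower, against 19.4% and 22.4% of all genes.

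Other immediate early genes went in both directions. Of the 19 tested, 0 passed the test and the median log2 fold change was 0.25. Groups did not overlap for 8 higher and 3 lower genes, against 14.8% and 14.7% of all genes tested. Ppp1r15a (GADD34), a phosphatase subunit that relieves translational arrest, was at 176, 131 and 94.8 CPM in Mcemp1-/- PC, against 49.9, 51.7 and 47.3 CPM in wild-type PC. Ier3, a survival gene, was at 579, 534 and 296 CPM in Mcemp1-/- PC, against 189, 187 and 186 CPM in wild-type PC. Gadd45b, a stress-inducible regulator of MAP kinase signalling, was at 1.27, 1.32 and 7.54 CPM in Mcemp1-/- PC, against 11.1, 8.91 and 8.89 CPM in wild-type PC. Of the 19, 13 had an unadjusted p under 0.05, against 1566 higher and 1863 lower among all 13517 genes. Without replicate 6 the test called 7 of 20 higher and 6 lower, against 19.4% and 22.4% of all genes. Nr4a2, a relative of Nr4a1, was low in all libraries, at 3.08, 2.29 and 1.89 CPM in Mcemp1-/- PC, against 1.24, 2.20 and 1.71 CPM in wild-type PC.

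**Figure D4:**
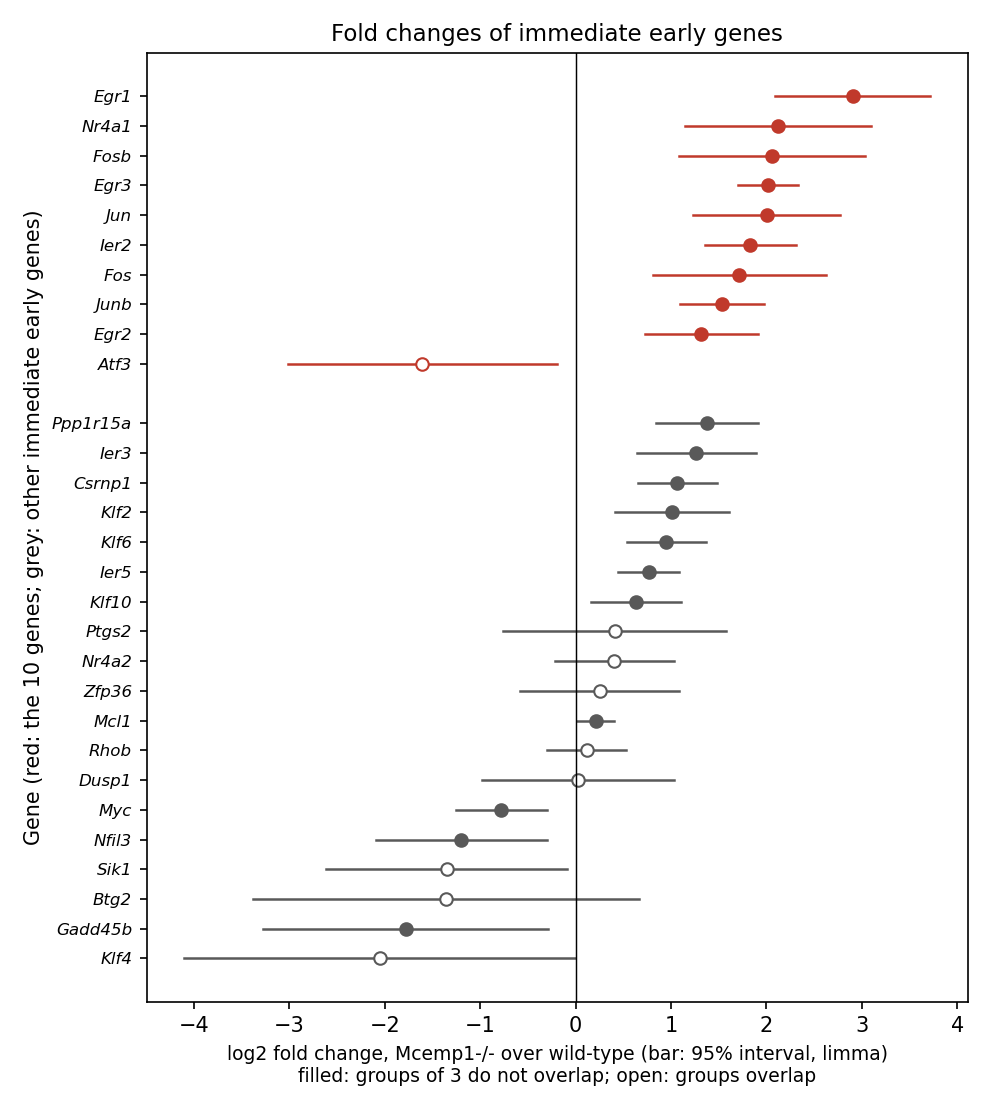
Log2 fold change of Mcemp1-/- over wild-type PC with 95% limma intervals for the 10 genes (red, top) and 19 other immediate early genes (grey), filled where the groups did not overlap. The 9 higher red points lie between 1.32 (Egr2) and 2.90 (Egr1), while the grey points spread on both sides of 0, for example Ppp1r15a at 1.38 and Gadd45b at -1.78.

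Of 12 upstream SRF, ternary complex, CRTC and MEF2 genes, 0 passed the test and the median log2 fold change was -0.06. Groups did not overlap for 1 higher and 3 lower genes, against 14.8% and 14.7% of all genes. Mef2c was at 0.536, 0.382 and 9.68 CPM in Mcemp1-/- PC, against 23.2, 11.3 and 10.03 CPM in wild-type PC. Elk1, a ternary complex factor, was at 35.0, 33.2 and 24.8 CPM in Mcemp1-/- PC, against 23.5, 23.1 and 24.3 CPM in wild-type PC. The coactivator Crtc1 was at 16.8, 17.8 and 16.4 CPM in Mcemp1-/- PC, against 20.2, 21.8 and 20.3 CPM in wild-type PC. At an unadjusted p under 0.05 the count was 3. Without replicate 6 the test called 4 higher and 3 lower, against 19.4% and 22.4% of all genes.

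Of 9 genes that partner EGR proteins or damp the MAP kinase pathway upstream of them, 0 passed the test and the median log2 fold change was 0.26. Groups did not overlap for 3 higher and 0 lower genes, against 14.8% and 14.7% of all genes. Spred1, an inhibitor of RAS signalling, was at 552, 523 and 318 CPM in Mcemp1-/- PC, against 254, 271 and 262 CPM in wild-type PC. Dusp6, an ERK phosphatase, was at 102, 92.4 and 63.3 CPM in Mcemp1-/- PC, against 48.0, 58.5 and 58.1 CPM in wild-type PC. Spry4 was at 3.35, 4.46 and 3.35 CPM in Mcemp1-/- PC, against 0.723, 2.15 and 0.798 CPM in wild-type PC. At an unadjusted p under 0.05 the count was 3. Without replicate 6 the test called 6 higher and 1 lower, against 19.4% and 22.4% of all genes. Nab2, a corepressor that EGR proteins induce, was spread within each group, at 19.6, 35.1 and 8.31 CPM in Mcemp1-/- PC, against 21.7, 9.38 and 6.84 CPM in wild-type PC.

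Genes most like Egr3 across the 6 libraries (Pearson's r of log2 values, among 9875 genes that averaged 5 CPM or more, the 10 genes and Gm and Rik symbols left out) were Clock, Vps35, Cd69, Smc2 and Cpt1a, with r of 0.990 to 0.996. Cd69, an early activation antigen of leukocytes, was at 101, 88.3 and 81.5 CPM in Mcemp1-/- PC, against 45.0, 47.8 and 46.3 CPM in wild-type PC, while Vps35 differed by only 0.10 on the log2 scale. Genes most like the mean profile of the 10 were Adamts5, Gopc, Top2a, Nfkbiz and Ahnak2, with r of 0.990 to 0.995. Without replicate 6 every one of these r stayed at 0.990 or above. With 6 libraries in 2 groups, any gene with tight and separate groups gets a high r, and the value is a description only.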

How the data were processed

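Libraries were prepared by the authors with the KAPA mRNA HyperPrep kit, sequenced on a NextSeq instrument and analysed in Partek Flow (v10.0). The genome build per the labels is mm10. The deposited values are normalized counts for each gene on a CPM scale, one column per library. The sources used here do not give the aligner, annotation, normalization or gene filter. Whole reads could not be recovered, so no count model was run. Sample numbers 4 and 5 in the column headers occur in 2 libraries each, and which libraries shared a sequencing run is not given.

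The 13517 genes that averaged 1 CPM or more across libraries entered a limma fit (version 3.58.1, R 4.3.3) with a trend. Values were taken as log2 after adding 0.479, equal to 0.5 CPM at the mean library total, so fold changes of low genes are understated. P-values were adjusted by the Benjamini-Hochberg method over all genes tested, and a gene was called at an adjusted p under 0.05. The script was tested on simulated data. The members, lists and tests were chosen with earlier results of these data known. Named genes were the 10 members, in each related list the genes called or else the 3 with the largest log2 fold change among those without overlap, and the 5 genes most like Egr3 and the 5 most like the mean profile. Jund, Nab2, Nr4a2, Epx, Prg2, Ccr3, Il5ra, Siglecf, Ear2, Ctsg, Hspa1a and the genes beside the members under the 2-fold rule were named after their values were seen. Alternatives were other pseudocounts and filters, median-of-ratios scaling, no trend, sex as a term and each library left out. Promoters are from RefSeq, and exon lengths and overlapping genes from GENCODE vM21. Figures were drawn with matplotlib 3.10.9.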

Additional observations from a re-analysis of the deposited data

How the results depend on the processing

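Across the pseudocounts (0.1 and 2 CPM), the filters (none, and a mean of at least 5 CPM, which leaves out Egr2 and Atf3), median-of-ratios scaling, eBayes without a trend, sex as a term and each library left out, the direction of each of the 10 genes was kept. The log2 fold change ranged over 2.64 to 3.25 for Egr1, 1.90 to 2.10 for Egr3 and -2.23 to -0.87 for Atf3. With sex as a term, 6 genes and 2 of the 10 (Egr3 and Junb) were called higher. With a pseudocount of 2 CPM, 5 genes were called lower. Leaving out 1 library gave 0 to 2623 genes called higher, 0 to 3021 lower, 0 to 9 of the 10 called higher and 0 to 1 lower, the upper ends all without the library labelled Mcemp1-/- replicate 6. Likewise the lists gave 0 to 3 higher and 0 to 1 lower AP-1 and ATF partners, 0 to 7 and 0 to 6 other immediate early genes, 0 to 4 and 0 to 3 SRF and TCF regulators, 0 to 6 and 0 to 1 EGR partners, and 0 to 2 higher heat shock genes. Groups did not overlap, higher, for 9 of the 10 genes with median-of-ratios scaling, with the mast cell marker scaling and with each library left out, and leaving out 1 library gave 2214 to 4321 such genes among all tested, against 1996 with all libraries. Atf3 had lower groups without overlap (0 to 1 of the 10) without replicate 6 or wild-type replicate 1. The rule of a 2-fold difference in each Mcemp1-/- library held for 8 to 9 of the 10 and, with 1 library left out, for 29 to 252 of all genes, with 43 without replicate 4 and 252 without replicate 6. Scaled to the mast cell markers, an alternative chosen after seeing the data, it held for 3 of the 10 and 11 of all genes, and 187 genes had higher groups without overlap. The causes were not tested. No paired analysis was possible because the groups share no replicate numbers. The read depth is unknown, so no counting error is given for low genes such as Atf3 and Egr2.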
